A study of Mus musculus with 31 samples.

Results

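The genes described here are Tgfbi, the gene of a matrix protein induced by transforming growth factor beta (TGF-beta), and 9 genes of the TGF-beta and activin pathway: Tgfb1, Inhba, Tgfbr1, Tgfbr2, Smad2, Smad3, Smad7, Skil and Ski. They were taken by symbol from the table of gene counts, where all 10 were found among 24411 entries. RNA-seq was made from mouse Ly6C-hi monocytes, the inflammatory monocytes that leave the blood for inflamed tissue and tumors, in 3 groups of 3 libraries. Healthy blood came from healthy C57BL/6J mice. LLC blood came from C57BL/6J mice carrying subcutaneous tumors of LLC, the Lewis lung carcinoma line, and LLC tumor came from such tumors. In all groups the cells were sorted as CD11b+ Ly6G- Ly6Chi MHC-II-. No other genotype or treatment is labelled. Ages, tumor stage and any pooling of mice are not given in the sources used here. The labels do not say whether RNA-seq replicates came from separate mice, so p-values measure the spread between these libraries, which may be technical.

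TGF-beta and activin are secreted dimers that share a signalling route. TGF-beta is held in a latent complex until it is released, and then brings together the type II receptor Tgfbr2 and the type I receptor Tgfbr1, while activin, a dimer of Inhba chains, uses its own receptors. Both sets of receptors phosphorylate Smad2 and Smad3, which enter the nucleus with Smad4 and switch target genes on or off. Smad7, Skil and Ski limit the signal, and Smad7 and Skil are themselves target genes of the pathway. In monocytes and macrophages the pathway is known for tissue repair and for dampening inflammation.

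Total counts ranged from 10457492 to 20706412 per library. Levels are in CPM, a gene's count scaled to the library's total, with mean ± SD over 3 libraries. Changes are log2 fold changes ± standard error from edgeR's quasi-likelihood test over 12337 genes in all 9 libraries, with Benjamini-Hochberg adjusted p-values. A gene counts as called, and as having risen or fallen, where that p lay under 0.05. The test used TMM scaling factors, which were 0.798 in LLC tumor 1 and 0.968 to 1.07 in the other libraries, so a level in LLC tumor 1 is higher on the tested scale than in CPM. Small changes can therefore differ in direction between mean CPM and the test, as Tgfbr2 did from LLC blood to tumor (a CPM ratio of 0.969 and a tested change of 0.14). All 9 Ly6C-high monocyte markers were found in every group, and their summed level was 16065 to 16540 CPM in healthy blood, 17840 to 18979 CPM in LLC blood and 17772 to 21395 CPM in LLC tumor. Ly6c2, a gene of the sorting marker, was lower in tumor, at 272.4 to 472.5 CPM against 1099 to 1728 CPM in blood, and Itgam (CD11b) was higher, at 3193 to 3720 CPM against 893.2 to 1490.5 CPM. The summed level of 10 fibroblast markers set libraries apart. It was at most 19.4 CPM in healthy blood and 444.9 CPM in LLC blood 1, against 4.70 and 5.89 CPM in the other LLC blood libraries. In LLC tumor 1, 2 and 3 it was 998.8, 3697 and 4210 CPM, and none of the 10 markers was at 0 in all 3 of them. Tumor libraries also held the lowest sums of T and NK cell markers (2.85 to 6.20 CPM, against 31.4 to 52.3 CPM in LLC blood and 224.7 to 611.2 CPM in healthy blood) and the highest of platelet markers (145.8 to 227.1 CPM). The platelet markers did not all go that way. Of the 8, 2 had at most 3 counts in every tumor library, and 0 did so in either blood group. Epithelial or LLC cell markers summed to 63.4 to 102.0 CPM in tumor, against at most 9.79 CPM in blood, and endothelial markers to 57.9 to 72.8 CPM, against at most 24.1 CPM. Neutrophil markers summed to 175.7 to 357.8 CPM in healthy blood, 298.0 to 754.5 CPM in LLC blood and 170.1 to 390.9 CPM in tumor. Since these are bulk samples, a difference in the number of cells that express a gene and a difference in RNA per cell cannot be told apart. The part of other cells' RNA in the results was not tested, and the values that bear on it stand beside the results.

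The stretches of DNA just before the starts of Tgfbi and Inhba are shown because Tgfbi rose at both steps and Inhba had the largest change of the 10 in tumor. Both are 250 bases long, from RefSeq on GRCm38.p6, on the plus strand of chromosome 13, and they end at the base before the annotated transcript start. There were 8 windows for 7 of the 10 genes, and none for Skil, Smad2 and Smad7. Tgfbi lies at chr13:56609586-56639359 and its upstream window at chr13:56609336-56609585. Inhba lies at chr13:16004256-16031609 and its window at chr13:16011601-16011850, which is inside the annotated span of the gene, before one of its transcripts. Capitals mark matches, on the minus strand, to CAGAC, a short sequence known to bind Smad proteins.
Tgfbi: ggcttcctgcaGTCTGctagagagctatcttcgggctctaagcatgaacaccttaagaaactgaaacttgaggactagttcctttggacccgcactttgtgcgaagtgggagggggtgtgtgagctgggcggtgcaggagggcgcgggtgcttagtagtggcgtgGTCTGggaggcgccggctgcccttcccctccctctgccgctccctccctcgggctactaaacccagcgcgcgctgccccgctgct
Inhba: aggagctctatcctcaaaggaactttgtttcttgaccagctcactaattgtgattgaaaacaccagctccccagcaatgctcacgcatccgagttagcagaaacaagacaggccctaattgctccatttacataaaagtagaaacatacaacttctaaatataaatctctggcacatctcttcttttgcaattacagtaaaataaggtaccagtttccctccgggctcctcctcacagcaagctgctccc
The Tgfbi window held 2 such matches, at -239 and -85 from the start, and the Inhba window held none on either strand. Tgfbr2 and 1 of the windows of Tgfbr1 also held a match. This short sequence is common, and 42.2% of 32851 promoter windows of the same length held it on either strand. None of the 8 windows held the Smad palindrome GTCTAGAC (0.167% of windows), the AP-1 site TGANTCA (6.75%) or the cAMP response element TGACGTCA (1.55%). Skil, Smad2 and Smad7 had no window and were not searched for any of these sequences. A match describes letters only, and binding was not measured here.

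Tgfbi encodes an extracellular matrix protein that binds collagen and integrins, and its level was higher at both steps, from healthy blood to LLC blood and from LLC blood to tumor. It was 1637, 1565 and 1312 CPM in healthy blood 1, 2 and 3. In LLC blood it was 2463, 2819 and 2746 CPM, and in LLC tumor 5565, 4134 and 5088 CPM. The 3 groups did not overlap: every LLC blood library was above every healthy library, and every tumor library was above every LLC blood library. Means were 1505 ± 170, 2676 ± 188 and 4929 ± 729 CPM (SD, n = 3 each). Tgfbi rose by 0.80 ± 0.19 on the log2 scale in LLC blood, a 1.75-fold change (edgeR adjusted p = 0.0142), and by a further 1.10 ± 0.19, or 2.15-fold, in tumor (adjusted p = 0.000721). Against healthy blood, tumor was 3.75-fold higher (1.91 ± 0.19, adjusted p = 2.39e-05). The blood call was lost in 4 of 17 alternative settings, each of which left out 1 library (healthy blood 2 or 3, or LLC blood 2 or 3). The change was then 0.71 to 0.78, and the adjusted p was 0.0526 to 0.0693. The tumor calls held in all 17. Without LLC blood 1, the blood library with the highest fibroblast sum, the blood change was 0.87 (adjusted p = 0.0235), and without LLC tumor 1 the tumor change was 0.91 (adjusted p = 0.000106).

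**Figure D1:**
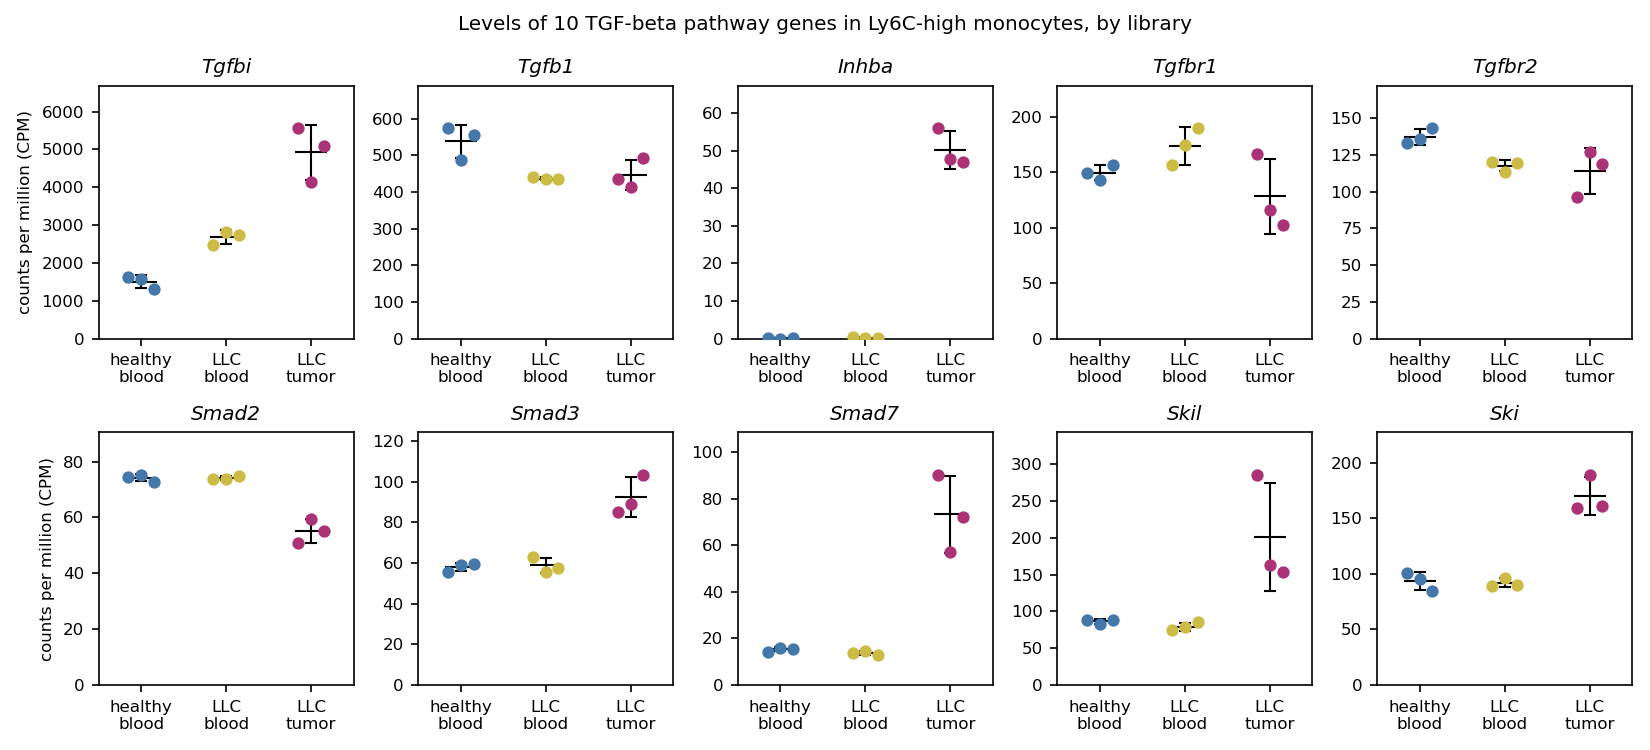
Level of each of the 10 genes in every library, in CPM on a linear axis from 0, by group. Points are libraries, and bars are the mean and SD of 3. Tgfbi steps up in each group, Inhba is near 0 in blood, Smad3, Smad7, Skil and Ski stand apart only in tumor, and the points for Tgfbr1 overlap between groups.

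Of the ligand genes, Tgfb1 encodes the main TGF-beta of immune cells. Its level was 575, 488 and 554 CPM in healthy blood, 441, 436 and 434 CPM in LLC blood, and 435, 413 and 492 CPM in tumor. All LLC blood libraries were below all healthy ones, while the tumor libraries overlapped with both groups. Despite that separation Tgfb1 was not called in LLC blood (-0.33 ± 0.11, edgeR adjusted p = 0.0646), although 8 of 17 alternatives called it lower. Tumor did not pass the test against LLC blood (0.24 ± 0.11, adjusted p = 0.0966) or against healthy blood (-0.09 ± 0.11, adjusted p = 0.494).

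Inhba, the activin A chain, was nearly absent from blood monocytes and present in every tumor library. It had 1, 0 and 1 counts in healthy blood and 4, 2 and 3 in LLC blood, against 620, 539 and 542 counts in tumor. In CPM the tumor libraries stood at 55.98, 47.78 and 46.83, with a mean of 50.2 ± 5.03 (SD, n = 3). Every tumor library was more than 100 times above the highest blood library. Over the summed counts, tumor was 254 times LLC blood (95% exact interval 133.5 to 556.7, for counting error only, 1701 against 9 counts). It was at least 258-fold above healthy blood, taking 3 counts in each healthy library as the floor. The edgeR adjusted p was 2.08e-07 against LLC blood and 1.41e-07 against healthy blood, and both calls held in all 17 alternatives. The blood groups were both near the floor, and Inhba was not called between them (adjusted p = 0.132). Inhba passed the filter on low counts only through the tumor libraries, so it had to differ between tumor and blood.

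The receptor genes did not follow Tgfbi. Tgfbr1, the type I receptor, stood at 149, 143 and 157 CPM in healthy blood, 156, 175 and 190 CPM in LLC blood and 167, 116 and 102 CPM in tumor. In CPM the highest tumor library lay among the LLC blood values, and the other 2 lay below both blood groups. With the TMM factors applied, LLC tumor 1 was above every LLC blood library (208.9 CPM against at most 182.2 CPM). Tgfbr1 was not called in any of the 3 comparisons by edgeR (0.19 ± 0.22, adjusted p = 0.579, in LLC blood, and -0.20 ± 0.22, adjusted p = 0.451, from LLC blood to tumor). Without LLC tumor 1 the tumor change was -0.54 with an adjusted p of 0.000416, and with library totals as the only scaling it was -0.44 with an adjusted p of 0.0357. The alternatives spanned -0.54 to -0.02, with adjusted p from 0.000416 to 0.938. Against healthy blood, tumor differed by -0.01 ± 0.22 (adjusted p = 0.965), and by -0.41 without LLC tumor 1 (adjusted p = 0.00209).

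Tgfbr2, the type II receptor that binds the ligand first, was 133, 136 and 143 CPM in healthy blood and 121, 113 and 120 CPM in LLC blood. No LLC blood library reached the lowest healthy one. Tgfbr2 fell by 0.25 ± 0.06 on the log2 scale (edgeR adjusted p = 0.0224), a call that held in 11 of 17 alternatives. It was lost with library totals as the scaling (adjusted p = 0.133), with no filter on low counts (0.0535), and without healthy blood 3, LLC blood 1, LLC blood 2 or LLC blood 3. In tumor it was 96.3, 127 and 119 CPM, which overlapped LLC blood in CPM. With the TMM factors applied there was no overlap, at 120.7, 127.2 and 123.0 CPM against 114.6, 106.3 and 114.8 CPM. Tgfbr2 was not called from LLC blood to tumor (0.14 ± 0.06, edgeR adjusted p = 0.0787). That change was -0.04 with library totals as the scaling, and 0.19 without LLC tumor 1, where it was called (adjusted p = 0.0273). Tumor against healthy blood gave -0.10 ± 0.06 (adjusted p = 0.183). The number of Tgfbr1 counts per Tgfbr2 count was 1.06 to 1.12 in healthy blood and 1.30 to 1.59 in LLC blood, with no overlap. In tumor it was 1.73 in library 1 but 0.912 and 0.861 in libraries 2 and 3, so this ratio had no common direction there. Ratios of counts depend on transcript lengths and were compared only between libraries.

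The receptor-regulated Smads parted in tumor. Smad3 stood at 55.5, 59.2 and 59.4 CPM in healthy blood and 63.1, 55.6 and 57.7 CPM in LLC blood, with overlap and no call (-0.01 ± 0.09, edgeR adjusted p = 0.961). In tumor it was 84.9, 88.9 and 103.5 CPM, above every blood library. Smad3 rose 1.81-fold there (0.85 ± 0.09, adjusted p = 4.01e-05), and 1.79-fold against healthy blood (0.84 ± 0.09, adjusted p = 3.73e-05).

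Smad2, which shares the receptors of Smad3, was 74.4, 75.3 and 72.8 CPM in healthy blood and 73.6, 73.9 and 74.9 CPM in LLC blood, a spread of under 3 CPM over 6 libraries. Smad2 was not called between the blood groups (-0.03 ± 0.07, edgeR adjusted p = 0.804). In tumor it was 50.7, 59.6 and 55.2 CPM, below every blood library. Smad2 fell by 0.23 ± 0.07 on the log2 scale against LLC blood (adjusted p = 0.0136) and by 0.26 ± 0.07 against healthy blood (adjusted p = 0.00709). The first call was lost in 2 of 17 alternatives, with only the 6 libraries compared (adjusted p = 0.0642) and without LLC tumor 3 (0.0558). Smad2 was lower against LLC blood in all 17 alternatives, from -0.43 to -0.17. With library totals as the only scaling, the median over all genes was itself -0.23 in this comparison. Smad3 counts per Smad2 count were 0.746 to 0.857 in the 6 blood libraries and 1.67, 1.49 and 1.87 in tumor 1, 2 and 3. This ratio compares genes within a library, so it does not depend on the scaling.

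All 3 inhibitors rose in tumor, and none was called in LLC blood (Smad7 -0.18 ± 0.22, Skil -0.15 ± 0.27 and Ski -0.05 ± 0.09, edgeR adjusted p 0.6 to 0.741). Smad7, which blocks the receptors and recruits ubiquitin ligases to them, was 14.3, 16.0 and 15.6 CPM in healthy blood, 13.9, 14.5 and 13.1 CPM in LLC blood and 90.4, 57.1 and 72.3 CPM in tumor. The lowest tumor library was more than 3 times the highest blood library. Smad7 rose 6.22-fold from LLC blood to tumor (2.64 ± 0.22, edgeR adjusted p = 8.51e-06). Among the 9 genes other than Inhba this was the largest change in the comparison, and without LLC tumor 1, its highest library, it was 2.36. Against healthy blood the rise was 5.50-fold (2.46 ± 0.22, adjusted p = 1.03e-05). Smad7 counts per Smad3 count were 0.220 to 0.271 in blood and 1.06, 0.642 and 0.699 in tumor.

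Skil (SnoN) and Ski are related co-repressors that bind Smad complexes on DNA. Skil was 88.0, 83.1 and 88.0 CPM in healthy blood, 74.7, 78.2 and 85.2 CPM in LLC blood and 285.9, 163.1 and 153.6 CPM in tumor. All tumor libraries were above all blood libraries, but LLC tumor 1 stood well above the other 2. Skil rose 3.00-fold against LLC blood (1.59 ± 0.28, edgeR adjusted p = 0.000838). Over the alternatives the change was 1.12 (without LLC tumor 1) to 1.79. Against healthy blood the rise was 2.71-fold (1.44 ± 0.28, adjusted p = 0.00131). Without LLC tumor 1 Skil was also called in LLC blood, at -0.20 (adjusted p = 0.0347), the 1 alternative of 17 that did so.

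Ski was 100.6, 95.8 and 84.4 CPM in healthy blood, 89.4, 96.6 and 90.3 CPM in LLC blood and 159.1, 189.5 and 161.7 CPM in tumor. The tumor libraries stood together above all of the blood libraries. Ski rose 2.12-fold against LLC blood (1.08 ± 0.09, edgeR adjusted p = 8.53e-06) and 2.05-fold against healthy blood (1.04 ± 0.09, adjusted p = 9.58e-06). Skil counts per Ski count were 0.810 to 1.04 in blood. They were 1.80 in LLC tumor 1, and 0.861 and 0.950 in LLC tumor 2 and 3, within the blood range. The 2 co-repressors thus kept their blood proportion in 2 tumor libraries and not in the other. The tumor calls of Smad7, Skil and Ski against both blood groups held in all 17 alternatives.

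**Figure D2:**
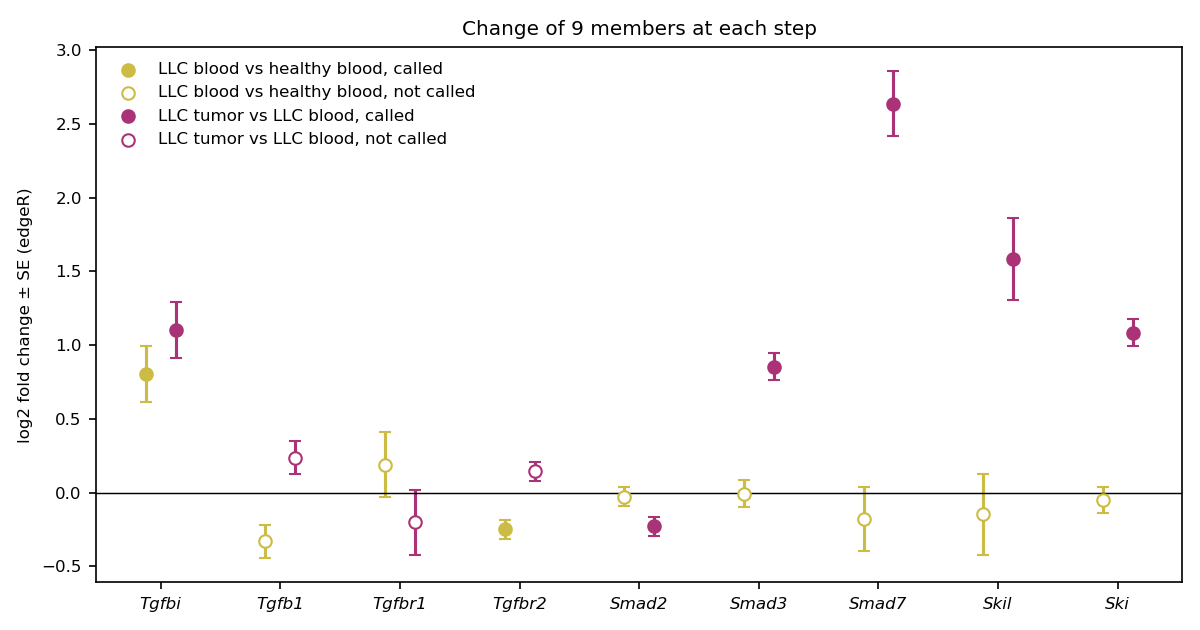
Log2 fold change ± standard error (edgeR) of 9 genes at each step, LLC blood against healthy blood and LLC tumor against LLC blood. Filled points were called at an adjusted p under 0.05. Inhba is left out because its blood groups lie near the floor. Tgfbi is the only gene shown that rose at both steps, and both steps share the LLC blood libraries.

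Counted over the 10 genes, LLC blood differed from healthy blood in 1 higher gene (Tgfbi) and 1 lower gene (Tgfbr2), and 8 were not called. Of all 12337 genes tested, 23.6% were called in this comparison, 14.0% higher and 9.61% lower, so the share of the 10 called lay near that of all genes. From LLC blood to tumor 6 were higher (Tgfbi, Inhba, Smad3, Smad7, Skil and Ski), 1 was lower (Smad2) and 3 were not called (Tgfb1, Tgfbr1 and Tgfbr2). The background there was 61.3% called, 29.6% higher and 31.7% lower, so the 7 of 10 called lay near the background. The 6 that rose include Inhba, which had to differ, and without it 5 of 9 rose. From healthy blood to tumor the same genes were called in the same directions, against a background of 66.5%, 33.5% higher and 33.0% lower. The median change of the 10 was -0.04 in LLC blood, 0.97 from LLC blood to tumor and 0.94 from healthy blood to tumor. Over all genes tested the medians were -0.01, -0.03 and -0.00. Tumor comparisons share their tumor libraries, and both comparisons with LLC blood share that group, so these counts are not independent.

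The other genes of the pathway were taken from a list of 71, of which 55 passed the filter on low counts. The 16 that did not include Tgfb2, Inhbb, Bmp2, Bmp4, Itgb6, Itgb8 and Fst, and their highest level in any library was 1.77 CPM. In LLC blood 5 of the 55 rose and 2 fell (12.7%, against 23.6% of all genes called). In tumor against LLC blood 33 rose and 6 fell (70.9%, against 61.3%), and in tumor against healthy blood 37 rose and 5 fell (76.4%, against 66.5%). Of the 55, 10 passed the filter on low counts only through the tumor libraries, as Inhba did. Without them 25 of 45 rose and 6 fell from LLC blood to tumor, and 28 rose and 5 fell from healthy blood to tumor. Median changes of the list were -0.01, 0.64 and 0.64. These did not move when genes at the floor were set to their bounds.

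In LLC blood 3 of the 7 called pathway genes were receptors, and all 3 rose. Acvr1b, a type I activin receptor, rose by 0.73 ± 0.11 (edgeR adjusted p = 0.00173). Bmpr2, a type II receptor for bone morphogenetic proteins, rose by 0.49 ± 0.08 (adjusted p = 0.00364), and Acvr2a, a type II activin receptor, by 0.43 ± 0.10 (adjusted p = 0.0171). Acvr2a had fractional counts in 8 libraries, as reads shared with another gene give. Itgav, an integrin chain that releases latent TGF-beta, rose by 0.31 ± 0.09 (adjusted p = 0.0382), and Map3k7, the TAK1 kinase of the branch without Smads, by 0.29 ± 0.07 (adjusted p = 0.0145). The Itgav call held in 10 of 17 alternatives (adjusted p up to 0.199), those of Acvr2a and Tgif1 in 12 and that of Map3k7 in 14. The 2 genes that fell were Tsc22d1, a target gene (-0.86 ± 0.19, adjusted p = 0.0106), and Tgif1, a co-repressor (-0.80 ± 0.21, adjusted p = 0.0240). No ligand was called.

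In tumor against LLC blood every role except the signal transducers had more genes that rose than fell, against 29.6% higher and 31.7% lower among all genes. The counts by role include genes that passed the filter only through tumor, and so had to differ. Among those named below, these were Ltbp1, Ltbp2, Ltbp4, Lrrc32, Tgfb3, Bmpr1a and Pmepa1. Of the latency and activation genes, 7 of 9 rose and 1 fell. The 7 include Ltbp1, Ltbp4 and Lrrc32, while Ltbp2 was not called. Thbs1, thrombospondin 1, which activates latent TGF-beta, went from 158.1 CPM in LLC blood to 24423 CPM (7.48 ± 0.36, edgeR adjusted p = 4.17e-07). The latent TGF-beta binding proteins Ltbp1 (6.80 ± 1.11, adjusted p = 0.000553) and Ltbp3 (4.73 ± 0.43, adjusted p = 1.51e-05) rose, and Ltbp4, at the floor in LLC blood, was at least 137-fold higher (adjusted p = 2.70e-05). Ltbp1 had only 8, 4 and 3 counts in LLC blood, near the floor, so the size of its change is uncertain. The gene that fell was Nrros, which holds latent TGF-beta on myeloid cells (-1.06 ± 0.10, adjusted p = 1.82e-05). Nrros lies outside the naming rule and was chosen after its values were seen.

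Of the 3 tested ligands 2 rose, and both passed the filter only through tumor. One was Tgfb3, at least 92.1-fold higher in tumor than LLC blood, where it was at the floor (edgeR adjusted p = 6.95e-06). Among the receptors 6 of 9 rose and 2 fell, and the largest change was in Bmpr1a, a type I receptor for bone morphogenetic proteins (6.21 ± 0.66, adjusted p = 3.56e-05). Bmpr1a had only 3, 4 and 3 counts in LLC blood, near the floor, so the size of its change is uncertain. The 2 that fell, Acvr1b (-0.40 ± 0.11) and Bmpr2 (-0.47 ± 0.08), had risen in LLC blood, and these comparisons share the LLC blood libraries. Of the signal transducers 2 of 10 rose and 2 fell.

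Among inhibitors 8 of 13 rose and none fell, led by Pmepa1, a target gene that sequesters receptor-regulated Smads (6.63 ± 0.52, edgeR adjusted p = 5.62e-06). Pmepa1 had only 3, 4 and 4 counts in LLC blood, near the floor, so the size of its change is uncertain. Among targets 8 of 11 rose and 1 fell. Against healthy blood the transcription factor Bhlhe40 was also among the 8 largest changes of called genes that averaged 5 CPM or more (4.62 ± 0.25, adjusted p = 5.43e-07).

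**Figure D3:**
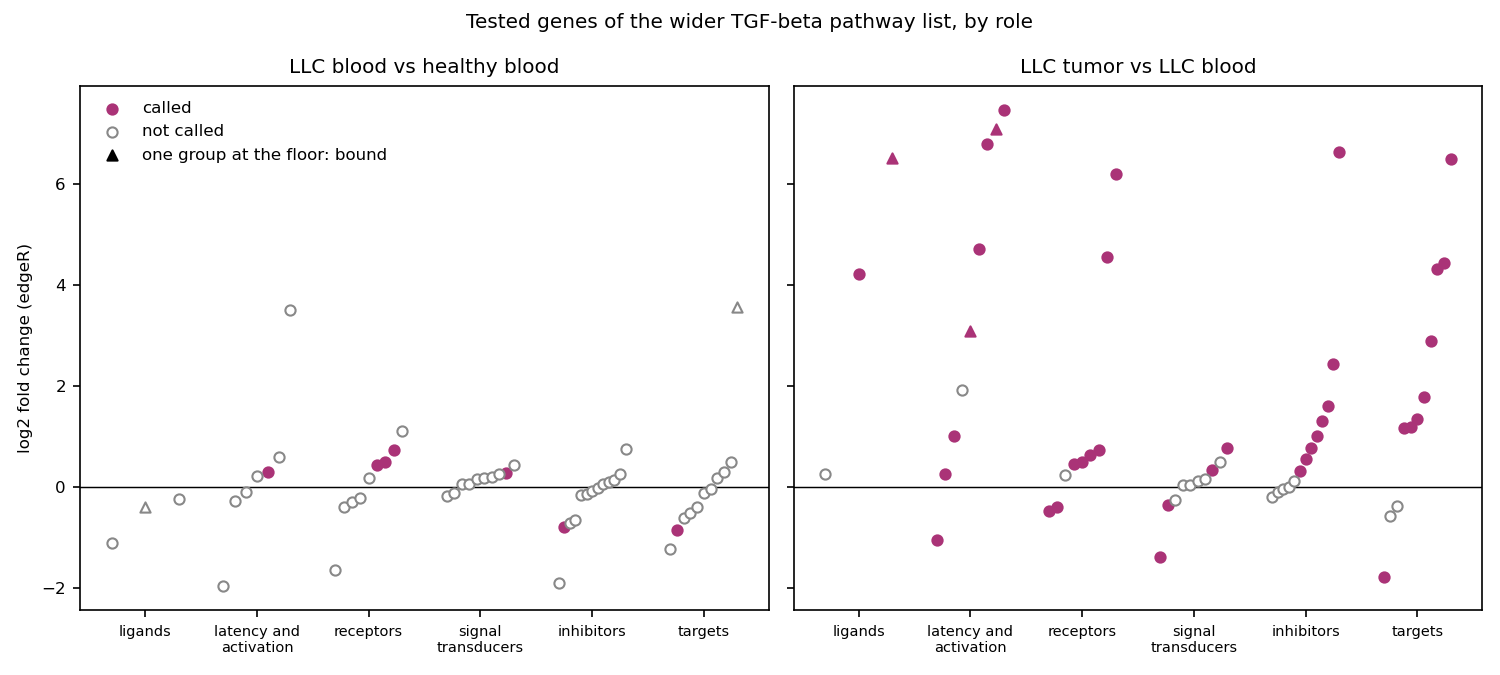
Log2 fold change (edgeR) of the tested genes of the wider pathway list by role, LLC blood against healthy blood on the left and LLC tumor against LLC blood on the right. Each symbol is a gene, filled where called, and triangles are bounds for genes with one group at the floor. Genes with both groups at the floor are left out. On the right 33 of 55 genes rose and 6 fell.

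The tumor libraries differed in which of these genes were high. Ltbp4 was 7.76, 36.1 and 43.9 CPM in tumor 1, 2 and 3, and Ltbp1 was 7.13, 58.9 and 40.8 CPM. Tgfb3 was 9.48, 21.6 and 27.7 CPM, and Bmpr1a was 4.24, 22.3 and 20.7 CPM. These genes, like Ltbp3 (26.6, 54.2 and 90.3 CPM), were lowest in LLC tumor 1, which also had the lowest sum of fibroblast markers of the 3. Tgfbi, Inhba, Smad7 and Skil were instead highest in LLC tumor 1. Pmepa1 was also highest there, at 25.7 CPM against 22.0 and 16.7 CPM, and Thbs1 was 24854, 23644 and 24772 CPM. Smad3 (84.9, 88.9 and 103.5 CPM) and Ski (159.1, 189.5 and 161.7 CPM), which also rose in tumor, were lowest in LLC tumor 1. With the TMM factors applied, LLC tumor 1 was still the lowest or highest library as stated for these genes, except Smad3 and Ski. Smad3 was then 106.3, 88.9 and 106.9 CPM, and Ski 199.3, 189.6 and 167.0 CPM. The marker sum of LLC tumor 1, 1251 CPM, was still the lowest, against 3699 and 4348 CPM. Thbs1 was then highest in LLC tumor 1 by more (31133, 23653 and 25586 CPM). With 3 libraries this is a description, and the part of fibroblast RNA in it was not tested.

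**Figure D4:**
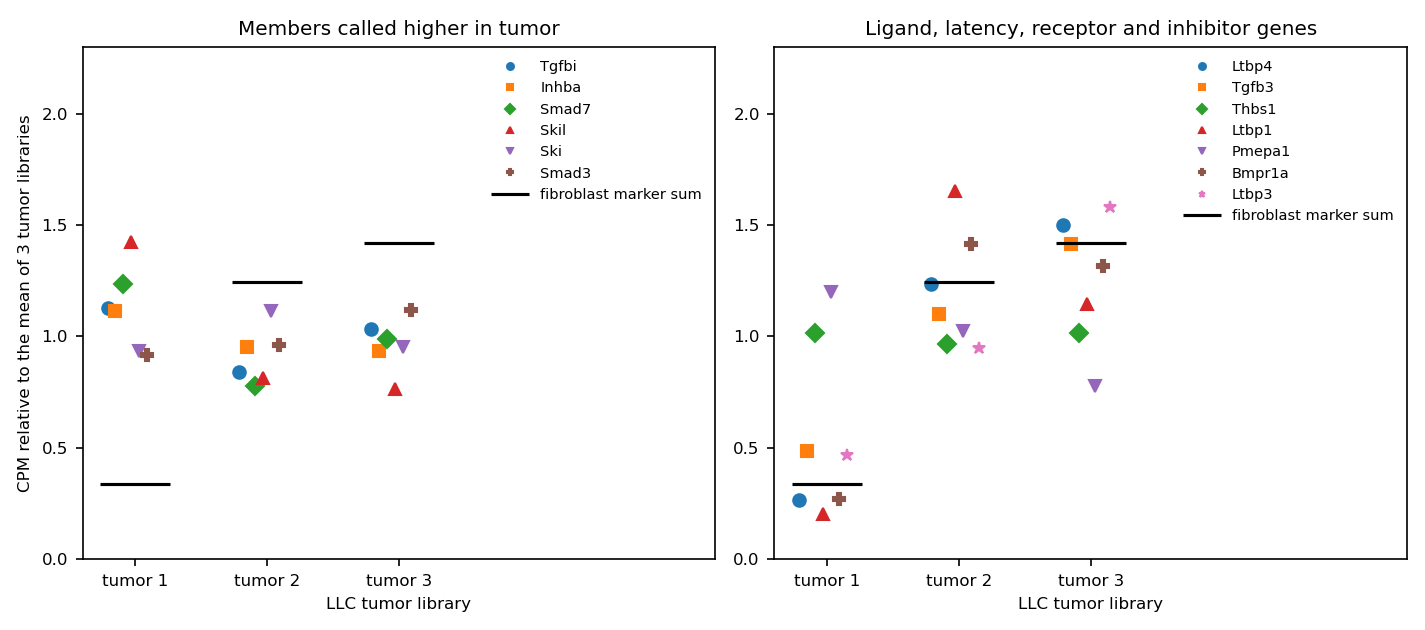
Level in each LLC tumor library relative to the mean of the 3, for the 6 genes that rose in tumor (left) and 7 ligand, latency, receptor and inhibitor genes of the pathway list with the largest change (right). Black bars are the summed fibroblast markers on the same scale. LLC tumor 1 has the lowest marker sum and the highest Tgfbi, Inhba, Smad7 and Skil. It also has the lowest Ltbp1, Ltbp3, Ltbp4, Tgfb3 and Bmpr1a. Smad3 and Ski are lowest there in CPM, but not with the TMM factors applied.

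The genes whose pattern over the 9 libraries was most like that of Tgfbi were Ripk3, the necroptosis kinase, Csf2rb2, a receptor chain for interleukin 3, Cfp, the complement protein properdin, Ric1, and Itpkb, an inositol trisphosphate kinase. Likeness was the root mean square difference of log2(CPM + 1) after centring each gene on its mean, among 6901 other genes that averaged 20 CPM or more, and it was 0.14 for Ripk3 and 0.16 for Itpkb. In order of group, Ripk3 averaged 32.9, 57.8 and 103.3 CPM, and Cfp averaged 138.9, 208.4 and 432.0 CPM. Both therefore stepped up in each group as Tgfbi did. Csf2rb2 has a near-identical copy, Csf2rb, and its counts may be split with it. The member nearest to Tgfbi was Ski, in place 418, with a difference of 0.44.

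Most like Inhba, among 9716 genes that averaged 5 CPM or more, were Fcrlb, Ak4, an adenylate kinase, Tgm2, transglutaminase 2, Errfi1, a feedback inhibitor of the epidermal growth factor receptor, and Sdc1, syndecan 1. Their differences were 0.20 to 0.27. Tgm2 averaged 38.1 CPM in healthy blood, 33.7 CPM in LLC blood and 1752 CPM in tumor. The member nearest to Inhba was Smad7, in place 518, with a difference of 1.56.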

How the data were processed

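RNA-seq of 9 libraries was analysed, and the other 22 of the series' 31 samples (ATAC-seq, CUT&Run and CUT&Tag) were not analysed here. The authors deposited a table of expected counts per gene symbol, not normalized. The submitters' processing notes name mm10, cutadapt 3.4, STAR 2.6.1d and Salmon 1.9.0 among other tools, with no roles. Blood columns are headed BM and were read as blood monocyte, since the sample titles name blood. Counts were rounded and fitted with edgeR 4.0.16 (R 4.3.3): all 9 libraries, group as the only term, TMM, filterByExpr (12337 genes kept), Benjamini-Hochberg within each of 3 comparisons, called at an adjusted p under 0.05. CPM are counts over the library's total. A gene with at most 3 counts in every library of a group was at the floor. Intervals and floors cover counting error only. The members and lists were chosen with earlier results of these data known. Of the pathway list, the text names in each comparison those called that averaged 5 CPM or more, at most the 8 with the largest change; 1 of these is not reported here. Most-like genes were the 5 nearest. Tested on simulated data with 200 of 11457 genes changed 2-fold in LLC blood, the fit recovered 87% with 5 false calls. The changed genes were drawn from those that averaged above 5 CPM, and simulated tumor and healthy blood did not differ. The 87% therefore does not cover changes under 2-fold, genes at lower levels or the tumor comparisons. In all, 17 alternatives were run. The labels name no batch, so any batch aligned with the groups and the groups themselves cannot be told apart.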

Additional observations from a re-analysis of the deposited data

How the results depend on the processing

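The members' log2 fold changes under the 17 alternatives were sorted by direction and call, leaving out Inhba between the blood groups. Of these, 448 kept their direction and side of the threshold, 21 became called, 12 lost their call and 12 changed sign. None of those that changed sign was called. In LLC blood against healthy blood, the genes called numbered 2917, and 4889 when only the 6 libraries compared were fitted. Leaving out 1 library gave from 1494 (LLC blood 2 left out) to 5064 (LLC tumor 1 left out). Members called there numbered 2, and 1 with no filter on low counts. Leaving out 1 library gave 0 to 4, the latter without LLC tumor 1. The 0 (edgeR) came without healthy blood 3, LLC blood 2 or LLC blood 3, where 2, 4 and 4 members had an unadjusted p under 0.05, while DESeq2 on all libraries called 3. Pathway genes called there numbered 7, and 19 with only the 6 libraries, 13 with DESeq2, and, when 1 library was left out, from 3 (LLC blood 3 left out) to 20 (LLC tumor 1 left out). Values that changed sign were Smad3 in LLC blood (0.017 with library totals, -0.061 to 0.038 leaving out 1 library), Ski in LLC blood (-0.118 to 0.0067 leaving out 1 library), and Tgfbr2 from LLC blood to tumor (-0.045 with library totals). From healthy blood to tumor they were Tgfb1 (-0.203 to 0.017 leaving out 1 library) and Tgfbr1 (0.032 with RLE factors, 0.034 with DESeq2, -0.41 to 0.17 leaving out 1 library). The cause was not tested. Of all calls in LLC blood, 59.4% were higher, against 46.3% with upper-quartile factors; from LLC blood to tumor 48.3% were higher, against 36.3% with library totals. With the replicate number as a block, 2788, 7455 and 8092 genes were called in the 3 comparisons, 3, 7 and 7 of them members, and Tgfb1 was called lower in LLC blood (adjusted p = 0.0458). Same-numbered libraries of different groups correlated at -0.14 to 0.30 in their deviations from the group mean, and others at -0.31 to 0.17, so the numbers were not taken to pair samples. Depth limits Inhba in blood, where no library had more than 4 counts.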
